A study of Arabidopsis thaliana with 12 samples.

Results

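UDP-glycosyltransferases named with the prefix UGT were followed across 12 arrays of transformed Arabidopsis root protoplasts. The members are the probe sets that name 1 gene whose updated symbol begins with UGT followed by a number, with the brightest probe set standing for a gene. This gave 47 genes, each with 1 probe set, of 13350 genes named by a probe set of their own; tests ran over all 22746 probe sets. They fall into 11 families and 21 subfamilies. UGT71 has 9 measured genes, UGT76 has 8, UGT73 has 7, UGT84 and UGT85 have 5 each, UGT72 has 4, UGT74 and UGT78 have 3 each, and UGT80, UGT87 and UGT88 have 1 each. The RefSeq gene table holds 58 symbols of this form, and 11 of them are not among the members.

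The series studied targets of ABI3, a transcription factor of seed maturation and abscisic acid signalling. Protoplasts of ecotype Columbia roots, carrying an ABI3-GR construct, were given combinations of dexamethasone (DEX, 10 µM), which per the labels sends the factor to the nucleus, and cycloheximide (CHX, 35 µM), which blocks translation. The 4 groups were DEX with CHX, CHX alone, DEX alone, and neither compound, with 3 arrays each. All 4 groups carry the construct, and no arrays of cells with an empty construct were used here, so an effect of either compound on its own cannot be told apart from one that needs ABI3. The probe annotation names no probe set for ABI3, and its level is not reported. The labels number the replicates but do not say that they were separate preparations, so p-values measure the spread between these samples, which may be technical. In bulk RNA, fewer cells of a type and less RNA per cell cannot be told apart.

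UGTs are enzymes that move a sugar from a UDP-sugar onto small molecules. In plants their acceptors include hormones, flavonoids, phenylpropanoids, sterols and foreign compounds, and the attached sugar changes the solubility, storage and activity of the acceptor. Members of a subfamily often sit side by side in the genome, the result of tandem duplication, and close relatives can differ in the acceptor they use.

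The deposited values are linear intensities, 1 per probe set and array, taken here to log2 after a floor of 16 (a log2 value of 4). Array medians lay between 115.5 and 220.8. Pearson's r over all probe sets was 0.893 to 0.950 between arrays of 1 group, 0.868 to 0.943 between groups that differ only in DEX, and 0.759 to 0.834 between groups that differ in CHX. CHX replicate 1 read its spiked hybridisation controls at 215 (geometric mean), and the remaining 11 arrays read them at 7102 to 12904. Among marker genes, the root beta-glucosidase gene PYK10 had a mean log2 intensity of 8.55 with CHX alone and 13.30 with neither compound. By symbol or synonym, 3 of 16 root markers and 1 of 12 leaf markers listed matched a probe set that names 1 gene. The rest may be on the array without a name in the annotation. PYK10, the root gene NAI2 and the leaf gene RCA fell with CHX in both comparisons, and EXPA7 of root hairs did not pass. The 3'/5' intensity ratio of the ubiquitin control probe sets was 6.23 to 10.0 with DEX and CHX, 4.95 to 5.12 with CHX alone, 6.29 to 6.68 with DEX alone and 6.35 to 7.30 with neither; the part of these values and of the markers in the results below was not tested.

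The members covered a wide range of signal. Of the 47 genes, 15 had a mean log2 intensity of at least 8 over the 12 arrays and 32 were dimmer, a split chosen after the values were seen. No array read 30 of the genes at the floor, and 17 were at the floor on at least 1 array. The number of members at the floor was 9, 6 and 8 on the 3 arrays with DEX and CHX, 3, 3 and 0 with CHX alone, 4, 1 and 1 with DEX alone, and 3, 3 and 3 with neither compound. The standard error (SE) of a log2 change had a median of 0.23 in the brighter genes and 0.58 in the dimmer ones. Brightness of different probe sets is not a measure of relative transcript amount, so genes are compared below by their changes only. All 47 probe set identifiers have the plain form that Affymetrix gave to sets not flagged as shared between transcripts, and cross-hybridisation between close relatives was not tested.

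**Figure D1:**
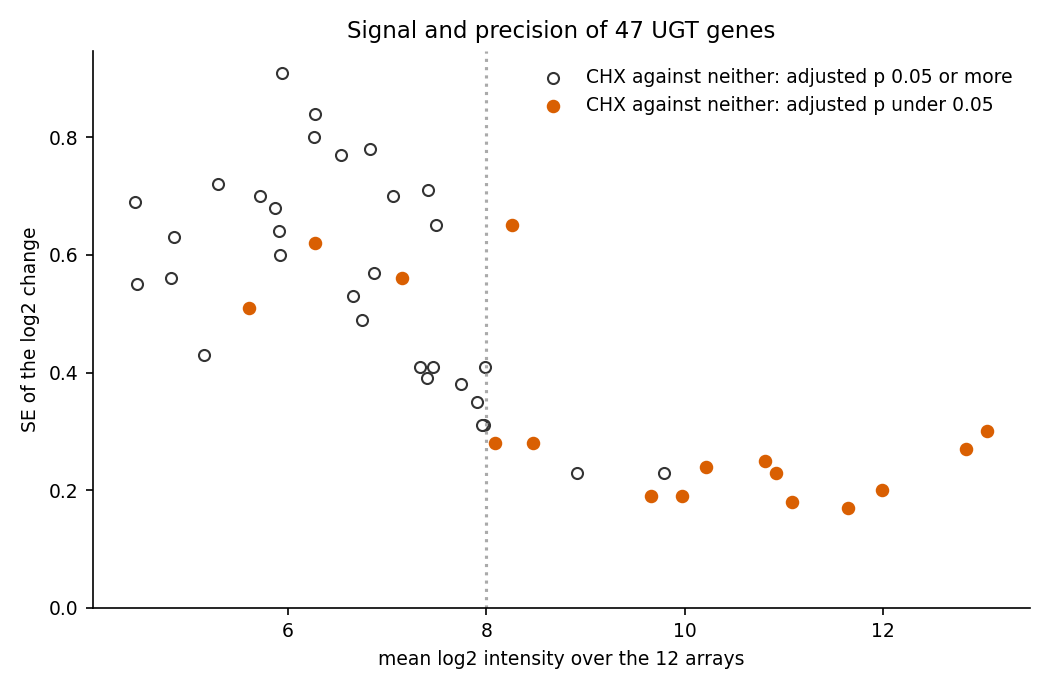
Mean log2 intensity over the 12 arrays (x axis) against the SE of the log2 change (y axis) for 47 UGT genes, with genes past the limma threshold for CHX alone against neither compound filled. Right of the dotted line at 8 all but 1 of the 15 genes have an SE of at most 0.30, and 13 are filled.

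CHX moved members in both directions, as it did probe sets across the array. In cells without DEX, 8 of the 47 genes rose and 8 fell with CHX (limma, Benjamini-Hochberg adjusted p under 0.05 over all 22746 probe sets), while 26.9% of all probe sets passed, 10.9% higher and 16.1% lower. In cells with DEX, 7 members rose and 14 fell, while 31% of all probe sets passed, 10.6% higher and 20.4% lower. The share of members called was thus 34.0% without DEX and 44.7% with DEX. Whether these shares differ from those of all probe sets was not tested. The members' median log2 change was -0.12 without DEX, beside -0.05 over all probe sets, and -0.97 with DEX, beside -0.46 over all. Centring the arrays on their medians brought the median over all probe sets in cells with DEX to 0.03 and the members' median to -0.48. With that centring 8 members rose and 7 fell. Without DEX replicate 2, 9 members fell in that comparison. The same centring turned the members' median without DEX to 0.02, beside 0.08 over all probe sets, and 7 members then rose and 5 fell.

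**Figure D2:**
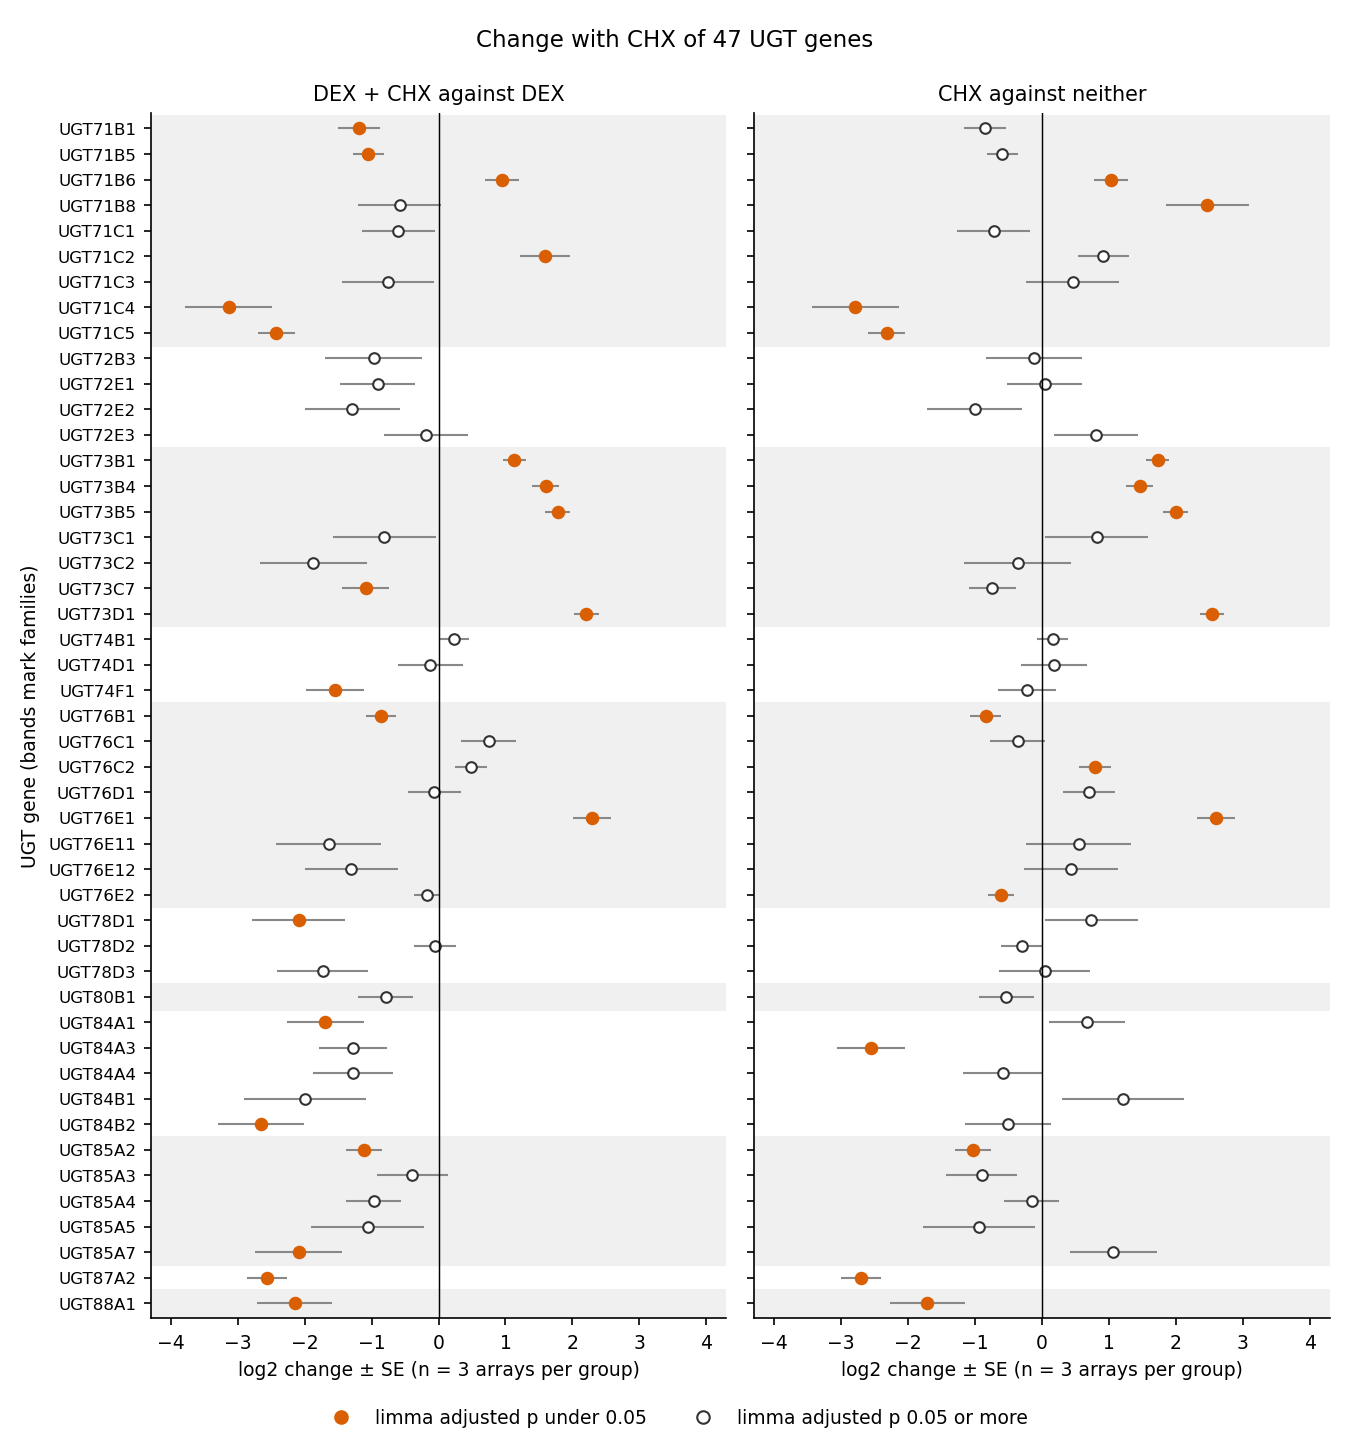
Log2 change with CHX (x axis) of 47 UGT genes (rows, shaded by family), DEX with CHX against DEX on the left and CHX against neither compound on the right, with bars of 1 SE and filled points for an adjusted p under 0.05 in limma (n = 3 arrays per group). UGT73B1, UGT73B4, UGT73B5, UGT73D1, UGT76E1 and UGT71B6 are filled right of 0 in both panels, and UGT71C4, UGT71C5, UGT76B1, UGT85A2, UGT87A2 and UGT88A1 left of 0 in both.

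The UGT73 family held 4 of the 8 genes that rose without DEX and none that fell, with a family median change of 1.46. With DEX, the same 4 genes rose and UGT73C7 fell, and the median was 1.13. The 4 were UGT73B1, UGT73B4, UGT73B5 and UGT73D1. UGT73B4 and UGT73B5 are known for detoxification of foreign compounds and for their part in redox and pathogen stress. All 3 measured genes of subfamily UGT73B rose in both comparisons. The 3 measured UGT73C genes had changes of 0.82 (UGT73C1), -0.36 (UGT73C2) and -0.74 (UGT73C7) without DEX, none past the threshold.

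UGT73D1 read 12.37, 11.89 and 11.97 (log2 intensity) with DEX and CHX, 12.56, 12.67 and 12.14 with CHX alone, 9.94, 9.91 and 9.76 with DEX alone, and 9.87, 9.80 and 10.08 with neither compound. Every array with CHX was at least 1 unit above every array without it. The log2 change with CHX was 2.54 without DEX (5.81-fold, SE 0.18, limma adjusted p = 2.47e-07) and 2.21 with DEX (4.62-fold, SE 0.18, adjusted p = 8.1e-07). UGT73B5 read 11.27, 10.73 and 10.55 with DEX and CHX, 10.92, 11.02 and 10.98 with CHX alone, 9.01, 9.10 and 9.09 with DEX alone, and 8.71, 9.13 and 9.07 with neither. The 6 arrays with CHX lay above the 6 without. Its change was 2.00 without DEX (4.0-fold, SE 0.19, limma adjusted p = 3.82e-06) and 1.78 with DEX (3.44-fold, adjusted p = 1.09e-05).

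UGT73B1 read 12.34, 12.02 and 12.32 with DEX and CHX, 12.62, 12.54 and 12.33 with CHX alone, 11.17, 10.86 and 11.27 with DEX alone, and 10.53, 11.01 and 10.75 with neither compound. Arrays with and without CHX did not overlap. It rose 3.31-fold without DEX (limma adjusted p = 5.52e-06) and 2.18-fold with DEX (adjusted p = 2.24e-04). UGT73B4, the brightest probe set of the family, read 13.07, 12.41 and 12.84 with DEX and CHX, 12.78, 12.90 and 12.54 with CHX alone, 11.47, 10.90 and 11.16 with DEX alone, and 11.07, 11.40 and 11.36 with neither. It rose 2.76-fold without DEX (limma adjusted p = 9.42e-05) and 3.03-fold with DEX (adjusted p = 4.41e-05), again with no overlap between arrays with and without CHX.

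**Figure D3:**
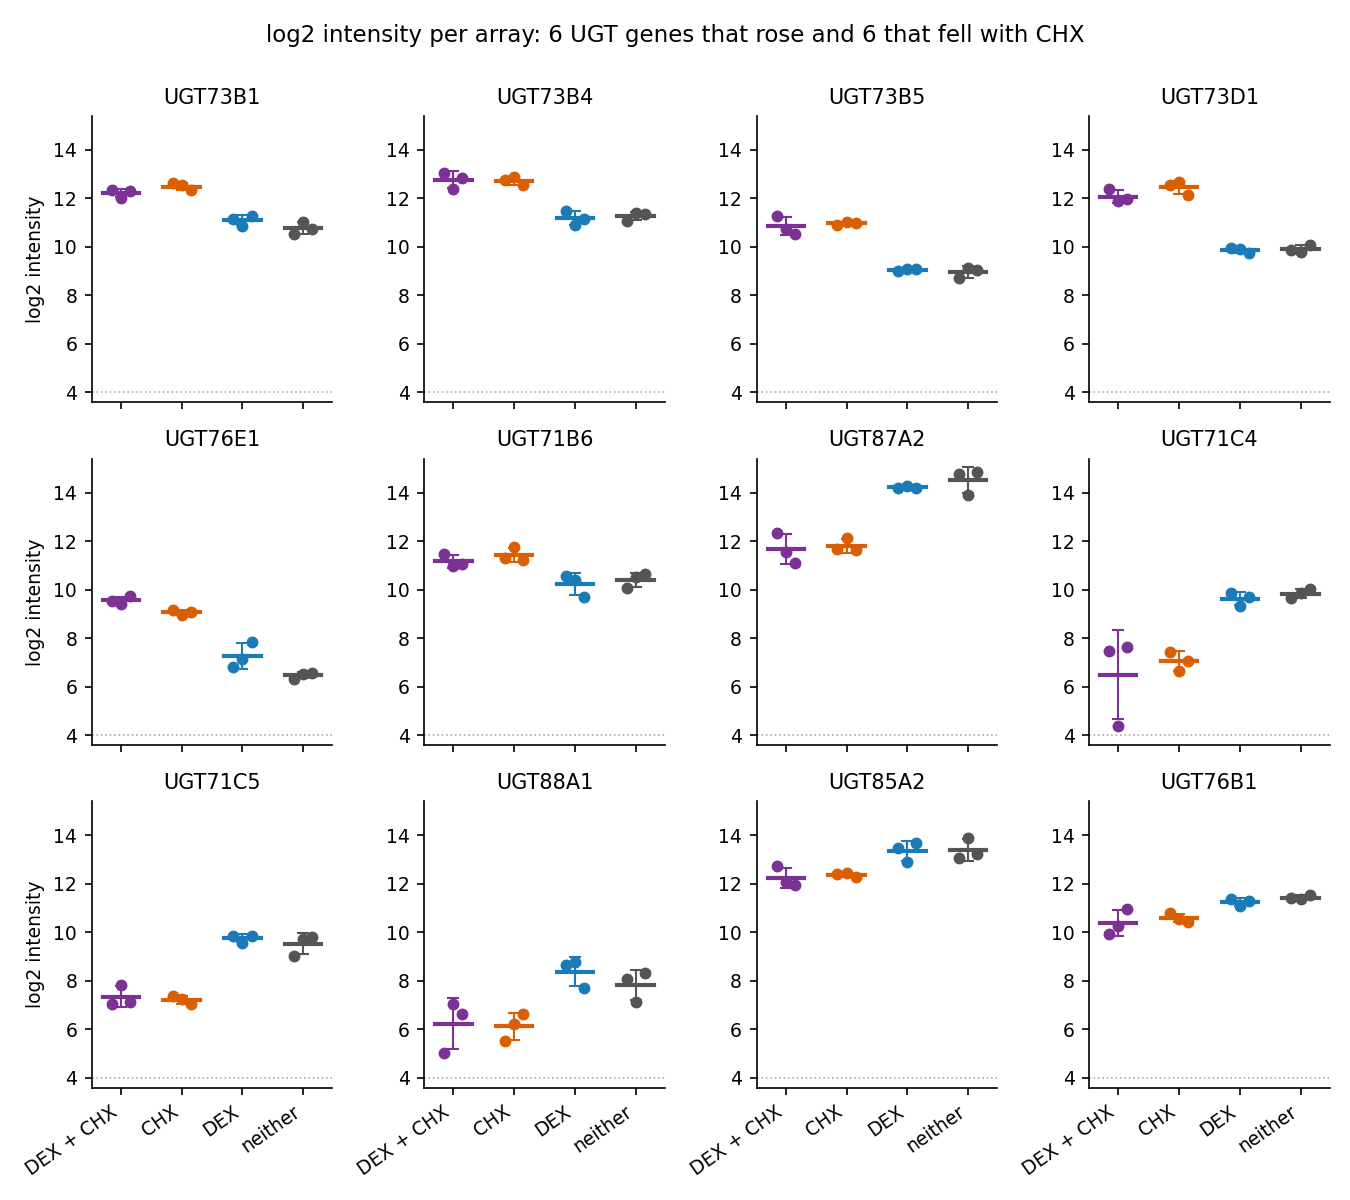
Log2 intensity (y axis) on each array for the 6 UGT genes that rose and the 6 that fell with CHX in both comparisons, by group (x axis); horizontal lines are means, bars 1 SD (n = 3 arrays), and the dotted line at 4 is the floor. For each of the 12 genes the points with CHX lie apart from the points without it, and for UGT71C4 1 array with DEX and CHX reads 4.39. The genes were picked by their calls, and no called member had overlapping groups, so this separation is no separate support. The share of all probe sets without overlap was not counted.

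Outside UGT73, UGT76E1 and UGT71B6 rose in both comparisons. UGT76E1 glucosylates 12-hydroxyjasmonate, an oxidised jasmonate. It read 9.54, 9.40 and 9.73 with DEX and CHX, 9.17, 8.96 and 9.07 with CHX alone, 6.81, 7.13 and 7.86 with DEX alone, and 6.33, 6.51 and 6.56 with neither compound. The lowest array with CHX was 1 unit or more above the highest without it. The log2 change was 2.60 without DEX (6.06-fold, SE 0.28, limma adjusted p = 1.13e-05) and 2.29 with DEX (4.89-fold, SE 0.28, adjusted p = 3.56e-05).

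UGT71B6, which glucosylates abscisic acid, read 11.48, 10.99 and 11.06 with DEX and CHX, 11.32, 11.78 and 11.22 with CHX alone, 10.57, 10.39 and 9.71 with DEX alone, and 10.08, 10.52 and 10.63 with neither compound. Arrays with CHX were all above arrays without it, by a smaller step than for the UGT73 genes. It rose 2.04-fold without DEX (limma adjusted p = 0.00624) and 1.94-fold with DEX (adjusted p = 0.00971).

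The remaining risers passed in 1 comparison. UGT71B8, another abscisic acid glucosyltransferase, read 7.69, 6.73 and 6.94 with CHX alone, and 4.0, 4.0 and 5.95 with neither compound, where 2 of 3 arrays were at the floor. Its log2 change of 2.47 (SE 0.62, limma adjusted p = 0.00871) was 3.12 without neither replicate 3, and with DEX it was -0.58 (adjusted p = 0.523). With a floor of 64 the change of UGT71B8 without DEX was 1.12 and did not pass (adjusted p = 0.05 after rounding). UGT76C2, which forms cytokinin N-glucosides, read 10.53, 10.61 and 10.84 with CHX alone, and 9.65, 10.36 and 9.56 with neither compound, where replicate 2 came close to the CHX arrays. Its log2 change was 0.80 (limma adjusted p = 0.0235), and the call ended without CHX replicate 2 or 3 or neither replicate 1 or 3 (adjusted p = 0.0564 to 0.102). UGT71C2 read 8.27, 9.08 and 9.20 with DEX and CHX, and 7.52, 6.74 and 7.52 with DEX alone, which do not overlap. Its log2 change with CHX was 1.59 in cells with DEX (SE 0.38, limma adjusted p = 0.00634) and 0.92 in cells without (adjusted p = 0.102).

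The falls were spread over more families. UGT71C4, UGT71C5, UGT76B1, UGT85A2, UGT87A2 and UGT88A1 fell in both comparisons. UGT87A2, known for its part in flowering time, read 12.32, 11.56 and 11.12 with DEX and CHX, 11.67, 12.15 and 11.63 with CHX alone, 14.19, 14.27 and 14.20 with DEX alone, and 14.79, 13.91 and 14.85 with neither compound. The brightest array with CHX was more than 1 unit under the dimmest without it. The log2 change was -2.70 without DEX (6.51-fold lower, SE 0.30, limma adjusted p = 1.62e-05) and -2.56 with DEX (5.88-fold lower, SE 0.30, adjusted p = 2.68e-05).

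UGT71C5, an abscisic acid glucosyltransferase, read 7.06, 7.84 and 7.15 with DEX and CHX, 7.36, 7.24 and 7.04 with CHX alone, 9.87, 9.56 and 9.87 with DEX alone, and 9.04, 9.75 and 9.81 with neither compound. Its arrays with CHX were all below those without. The log2 change was -2.32 without DEX (4.99-fold lower, SE 0.28, limma adjusted p = 2.95e-05) and -2.42 with DEX (5.34-fold lower, SE 0.28, adjusted p = 2.11e-05). Its direct neighbour UGT71C4 read 7.47, 4.39 and 7.64 with DEX and CHX, 7.45, 6.64 and 7.06 with CHX alone, 9.87, 9.34 and 9.70 with DEX alone, and 9.64, 9.86 and 10.02 with neither. DEX with CHX replicate 2 stood about 3 units below the others of its group. The log2 change was -2.79 without DEX (6.9-fold lower, SE 0.65, limma adjusted p = 0.00523) and -3.13 with DEX (8.77-fold lower, adjusted p = 0.00226), and the change with DEX was -2.08 (adjusted p = 1.26e-04) without that array.

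UGT88A1 read 5.05, 7.03 and 6.63 with DEX and CHX, 5.54, 6.23 and 6.62 with CHX alone, 8.65, 8.79 and 7.72 with DEX alone, and 8.07, 7.14 and 8.31 with neither compound. Arrays with and without CHX did not overlap, but the step between the nearest of them was small. Its log2 change was -1.71 without DEX (limma adjusted p = 0.0379) and -2.15 with DEX (adjusted p = 0.0104). The call without DEX ended when CHX replicate 1 or 2, DEX replicate 1 or 2, or neither replicate 1 or 3 was left out (adjusted p = 0.0508 to 0.141). The change with DEX was -1.56 (adjusted p = 0.0409) without DEX with CHX replicate 1.

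UGT85A2, the brightest of 5 UGT85A probe sets, read 12.73, 12.07 and 11.95 with DEX and CHX, 12.39, 12.44 and 12.28 with CHX alone, 13.50, 12.90 and 13.68 with DEX alone, and 13.07, 13.89 and 13.24 with neither compound. It fell 2.05-fold without DEX (limma adjusted p = 0.0105) and 2.16-fold with DEX (adjusted p = 0.00626); centring on array medians ended both calls (adjusted p = 0.131 without DEX and 0.306 with DEX), as leaving out both arrays of lowest weight did the call without DEX (0.0509). UGT76B1, which acts on isoleucic acid, salicylate and N-hydroxypipecolate in defence, read 9.92, 10.27 and 10.98 with DEX and CHX, 10.80, 10.57 and 10.44 with CHX alone, 11.38, 11.09 and 11.28 with DEX alone, and 11.41, 11.37 and 11.55 with neither. The groups with and without CHX were apart for both genes. The log2 change of UGT76B1 was -0.84 without DEX (limma adjusted p = 0.0129, and 0.0545 without CHX replicate 3) and -0.86 with DEX (adjusted p = 0.0107), and centring ended these calls too (adjusted p = 0.127 without DEX and 0.454 with DEX).

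UGT84A3 and UGT76E2 fell without DEX and did not pass with it. UGT84A3, which makes glucose esters of hydroxycinnamic acids, read 4.50, 4.04 and 4.36 with CHX alone, and 7.05, 6.60 and 6.90 with neither compound. The CHX arrays lay just above the floor, and the change of -2.55 (5.85-fold lower, SE 0.51, limma adjusted p = 0.00179) stood beside -1.28 with DEX (adjusted p = 0.0759). UGT76E2 read 9.37, 9.20 and 9.37 with CHX alone, and 9.60, 10.16 and 10.00 with neither. Its change of -0.61 (limma adjusted p = 0.0266) lost the call without any 1 of the 3 CHX arrays or without neither replicate 2 or 3 (adjusted p = 0.0536 to 0.108).

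With DEX, 8 further members fell that had not passed without it. They were UGT71B1, UGT71B5, UGT73C7, UGT74F1, UGT78D1, UGT84A1, UGT84B2 and UGT85A7. UGT84B2 read 4.0, 5.21 and 4.0 with DEX and CHX, and 7.64, 7.29 and 6.23 with DEX alone, a log2 change of -2.65 (SE 0.64, limma adjusted p = 0.00628) with 2 of 3 treated arrays at the floor, and with a floor of 64 it did not pass (adjusted p = 0.0822). UGT74F1, a salicylate glucosyltransferase, was at the floor on all 3 arrays with DEX and CHX, and read 5.15, 6.26 and 5.23 with DEX alone. It was at least 2.92-fold lower (limma adjusted p = 0.0155, and 0.0606 without DEX replicate 2).

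UGT85A7 read 6.15, 7.18 and 6.67 with DEX and CHX, and 8.89, 9.03 and 8.34 with DEX alone. UGT78D1, the flavonol 3-O-rhamnosyltransferase, read 6.71, 7.0 and 5.13 with DEX and CHX, and 8.29, 8.29 and 8.54 with DEX alone. UGT84A1, which like UGT84A3 makes hydroxycinnamate glucose esters, read 6.58, 6.37 and 5.51 with DEX and CHX, and 7.35, 8.12 and 8.07 with DEX alone. In each of the 3 genes the groups did not overlap. Their log2 changes were -2.09 (limma adjusted p = 0.0267), -2.09 (adjusted p = 0.0366) and -1.69 (adjusted p = 0.0382). The call for UGT85A7 ended without DEX replicate 1 or 2 or DEX with CHX replicate 1 or 3 (adjusted p = 0.0665 to 0.0932). That for UGT78D1 ended without CHX replicate 1 or 3, any DEX array, or DEX with CHX replicate 1 or 3 (adjusted p = 0.05 to 0.151). That for UGT84A1 ended without CHX replicate 1, DEX replicate 2 or 3, or DEX with CHX replicate 3 (adjusted p = 0.0529 to 0.134).

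UGT71B1 read 7.04, 7.25 and 7.23 with DEX and CHX, and 8.79, 8.42 and 7.89 with DEX alone. Its log2 change was -1.19 (limma adjusted p = 0.0104, and 0.0548 without DEX replicate 1). UGT71B5 read 9.29, 9.42 and 8.79 with DEX and CHX, and 10.38, 10.02 and 10.27 with DEX alone, a log2 change of -1.05 (adjusted p = 0.00311). The groups were apart for both genes, as they were for UGT73C7, at 7.71, 7.55 and 6.68 with DEX and CHX, and 8.01, 8.72 and 8.49 with DEX alone. UGT73C7 had a log2 change of -1.09 (limma adjusted p = 0.03), and the call ended without DEX replicate 2 or 3 or DEX with CHX replicate 3 (adjusted p = 0.0828 to 0.116). With arrays centred on their medians, UGT71B1, UGT71B5, UGT73C7, UGT74F1 and UGT84A1 did not pass with DEX (adjusted p = 0.126 for UGT84A1 to 0.281 for UGT73C7).

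The comparisons with and without DEX share no arrays, but the fit takes 1 spread per probe set from all 12 arrays. The calls in the 2 comparisons are therefore not independent. Of the members called, 12 passed in both with the same direction, 6 higher and 6 lower. This is 75% of the calls without DEX and 57.1% of those with DEX. The share of calls in common was not counted over all probe sets, so it is not shown to be particular to the members. No member passed in opposite directions, 4 passed only without DEX, 9 only with DEX, and 22 in neither. The log2 changes of those 22 ran from -1.0 (UGT72E2) to 1.21 (UGT84B1) without DEX, and from -1.99 (UGT84B1) to 0.75 (UGT76C1) with DEX; they include UGT76D1, UGT76E11, UGT76E12, UGT84A4, UGT85A3, UGT85A4 and UGT85A5. Of the 12, 11 had a mean log2 intensity of at least 8. Across genes, the log2 changes of the 15 brighter members had a Pearson r of 0.99 between the comparisons, and the same sign in 15 of 15. Among the 32 dimmer members r was 0.15, and 17 of 32 had the same sign. Both values are across genes measured on the same arrays and describe these libraries only. The mean that sets the split includes the arrays compared. UGT76E1 averaged under 8 in both groups without CHX, and UGT71C4 and UGT71C5 under 8 in both groups with CHX. Such genes counted as brighter through the groups where they were high, so the split gives no separate support for the calls. Whether a member responded to CHX differently with DEX was tested by the interaction term, described with DEX below.

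UGT genes that sit next to each other in the genome did not all change alike. By the order of genes in the RefSeq annotation (TAIR10.1), 30 members form 17 pairs with at most 1 protein-coding gene between them. For each pair, the difference of the log2 values on an array was compared between arrays with and without CHX by an exact permutation test within DEX level, two-sided, with a smallest possible p of 0.005; the test was chosen after the values were seen. After adjustment over the 17 pairs, 2 passed, both at the smallest possible p. At that p, 1 pair alone would not have passed. Each of the 2 pairs holds a gene already called higher by limma on these arrays, so the test is no separate support. UGT73D1 changed by 3.29 more than its neighbour UGT73C7 on the log2 scale, averaged over both DEX levels (exact p = 0.005, adjusted p = 0.0425). These belong to different subfamilies of UGT73. Within a subfamily, UGT76E1 changed by 2.83 more than its neighbour UGT76E2 (exact p = 0.005, adjusted p = 0.0425), although both enzymes act on 12-hydroxyjasmonate.

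On the arrays, UGT76E1 minus UGT76E2 was -0.28, 0.03 and 0.07 with DEX and CHX, -0.20, -0.24 and -0.30 with CHX alone, -2.87, -2.64 and -2.06 with DEX alone, and -3.27, -3.65 and -3.44 with neither compound. The 6 differences with CHX were all above the 6 without, by more than 1 unit; only this shift, and not the size of a difference on 1 array, can be read between probe sets. UGT71C2 with UGT71C1 differed by 1.91 (exact p = 0.01, adjusted p = 0.0567), and UGT71C4 with UGT71C3 by -2.81 (exact p = 0.015, adjusted p = 0.0638), where UGT71C1 and UGT71C3 were at or near the floor on most arrays. UGT71C5 and UGT71C4, which both fell, differed by 0.59 (exact p = 0.47), and UGT73B5 and UGT73B4, which both rose, by 0.36 (exact p = 0.06, adjusted p = 0.146).

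**Figure D4:**
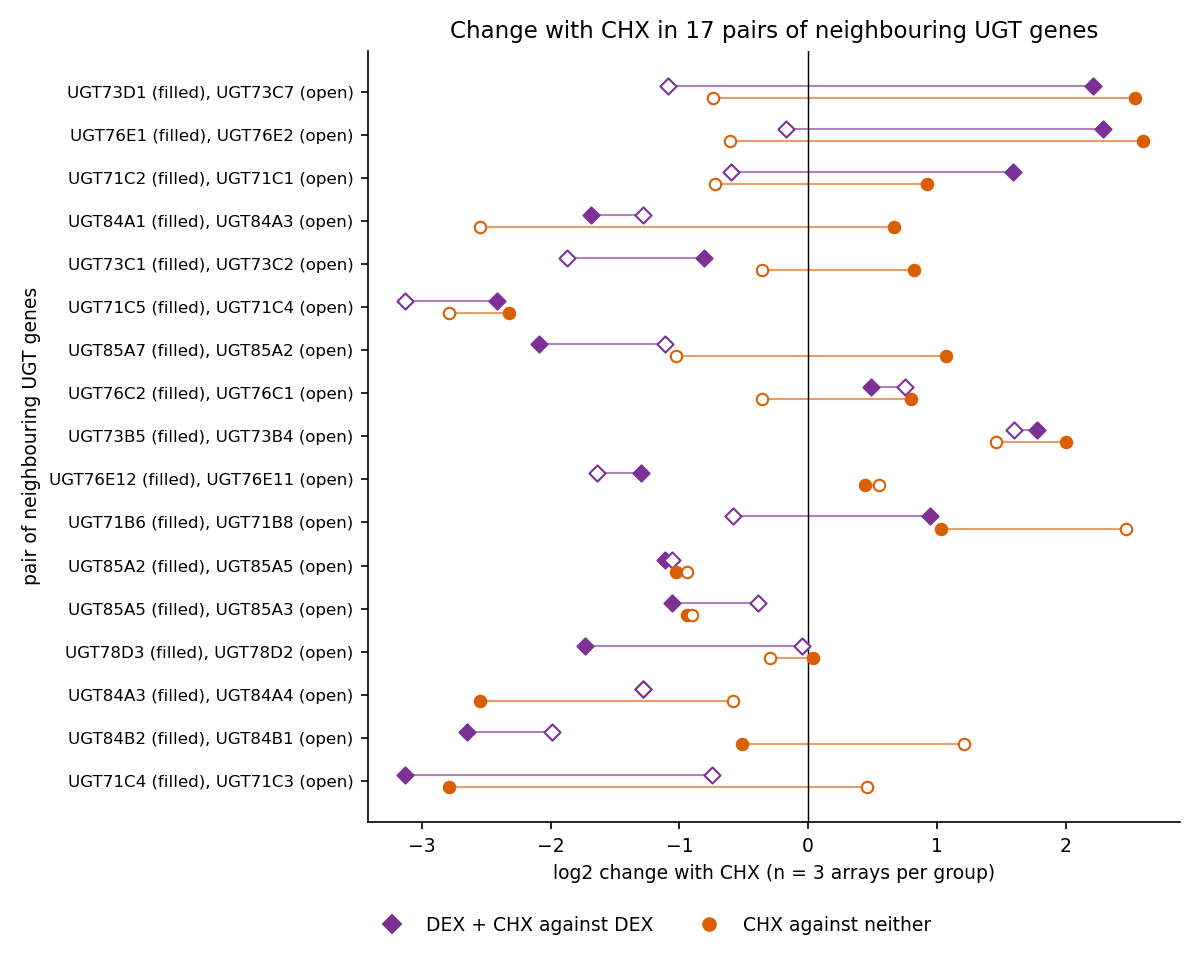
Log2 change with CHX (x axis, n = 3 arrays per group) of both genes of 17 neighbouring UGT pairs (rows, first gene filled, second open), for DEX with CHX against DEX (diamonds) and CHX against neither compound (circles). For UGT73D1 with UGT73C7 and UGT76E1 with UGT76E2 the genes lie on opposite sides of 0 in both comparisons. Of these, UGT73C7 without DEX (-0.74) and UGT76E2 with DEX (-0.17) were not past the limma threshold.

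DEX called no member. Without CHX, 0 of 47 passed (limma, lowest adjusted p = 0.551) while 0.0132% of all probe sets passed, all 3 of them higher. At an unadjusted p under 0.05 there were 6 members, and 6.42% of all probe sets. With CHX, 0 passed (lowest adjusted p = 0.379) while 0.273% of all probe sets passed, 0.255% higher and 0.0176% lower. The unadjusted threshold took 6 members and 7.83% of all probe sets. The members' median log2 change was 0.23 without CHX, with 29 of 47 above 0, beside 0.10 over all probe sets. It was -0.30 with CHX, with 14 of 47 above 0, beside -0.12 over all. With arrays centred on their medians these medians were 0.03, with 24 of 47 above 0, and -0.15. Over all probe sets they were then -0.1 without CHX and 0.04 with CHX. The 2 DEX comparisons share no arrays.

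The 15 brighter members had estimated log2 changes with DEX between -0.30 and 0.80 without CHX, and between -0.55 and 0.49 with CHX. Their 95% intervals reached from -1.61 to 1.41 without CHX and from -1.96 to 1.1 with CHX. UGT76E1 had the largest of these, 0.80 without CHX (95% interval 0.19 to 1.41, limma adjusted p = 0.676), at 6.81, 7.13 and 7.86 with DEX alone, and 6.33, 6.51 and 6.56 with neither compound. The groups did not overlap, and DEX replicate 3 was the highest. With CHX its change was 0.49 (adjusted p = 0.713). For the UGT73 risers the changes with DEX were 0.33 without CHX and -0.27 with CHX for UGT73B1, and between -0.38 and 0.09 in both comparisons for UGT73B4, UGT73B5 and UGT73D1.

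The largest changes with DEX were in dim probe sets. Without CHX, UGT71B8 read 6.13, 7.34 and 7.35 with DEX alone, and 4.0, 4.0 and 5.95 with neither compound, a log2 change of 2.29 (SE 0.62, limma adjusted p = 0.551). UGT85A7 read 8.89, 9.03 and 8.34 with DEX alone, and 7.26, 4.87 and 8.10 with neither, a change of 2.01 (adjusted p = 0.66). UGT78D1 read 8.29, 8.29 and 8.54 with DEX alone, and 7.22, 4.58 and 7.47 with neither, a change of 1.95 (adjusted p = 0.677). For both of these genes replicate 2 of the group with neither compound was more than 2 units below the rest of its group. Without it the changes were 1.08 for UGT85A7 and 1.03 for UGT78D1. Without neither replicate 3 the change was 2.94 for UGT71B8 and 2.69 for UGT85A7. UGT72B3 and UGT84A1 had changes of 1.51 (adjusted p = 0.787) and 1.44 (adjusted p = 0.734).

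With CHX the largest DEX changes were negative. UGT84B1, which can glucosylate the auxin indole-3-acetic acid, read 4.0, 4.0 and 6.51 with DEX and CHX, and 6.54, 6.01 and 7.41 with CHX alone, a log2 change of -1.82 (limma adjusted p = 0.666) with overlapping groups. UGT74F1 was at the floor on all 3 arrays with DEX and CHX, and read 5.85, 5.41 and 4.99 with CHX alone, at least 2.67-fold lower (adjusted p = 0.379). UGT84B2, UGT76E11 and UGT72E1 had changes of -1.44, -1.26 and -1.21. Single arrays moved several of these: UGT84B1 was at -2.65 without DEX with CHX replicate 3, UGT84B2 at -0.79 without CHX replicate 3, and UGT76E11 at -0.29 without DEX with CHX replicate 1 and -2.04 without replicate 2. Each of these 5 genes was at the floor on at least 1 array with DEX and CHX, the group with the most members at the floor. The part of signal loss on those arrays in these values was not tested.

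The interaction, which is the change with CHX in cells with DEX minus that in cells without, called no member either in limma, while 0.0044% of all probe sets passed, 1 in number. An unadjusted p under 0.05 was met by 7 members and 7.98% of all probe sets. The largest values were -3.20 for UGT84B1 (limma adjusted p = 0.574), -3.16 for UGT85A7 (adjusted p = 0.391), -3.06 for UGT71B8 (adjusted p = 0.386), -2.83 for UGT78D1 and -2.36 for UGT84A1. Leaving out 1 array gave -4.04 (without DEX with CHX replicate 3) to -2.48 (without neither replicate 1) for UGT84B1; it was -3.92 without neither replicate 3, -2.54 without DEX replicate 2 and -3.84 without DEX replicate 3. Without neither replicate 2 UGT85A7 was at -2.22 and UGT78D1 at -1.91, and without neither replicate 3 UGT85A7 was at -3.84 and UGT71B8 at -3.70. So none of the 13 members called in 1 CHX comparison alone was shown to differ between them. The members' median interaction was -0.35, beside -0.22 over all probe sets. With arrays centred on their medians it was 0.01, beside 0.14 over all.

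**Figure D5:**
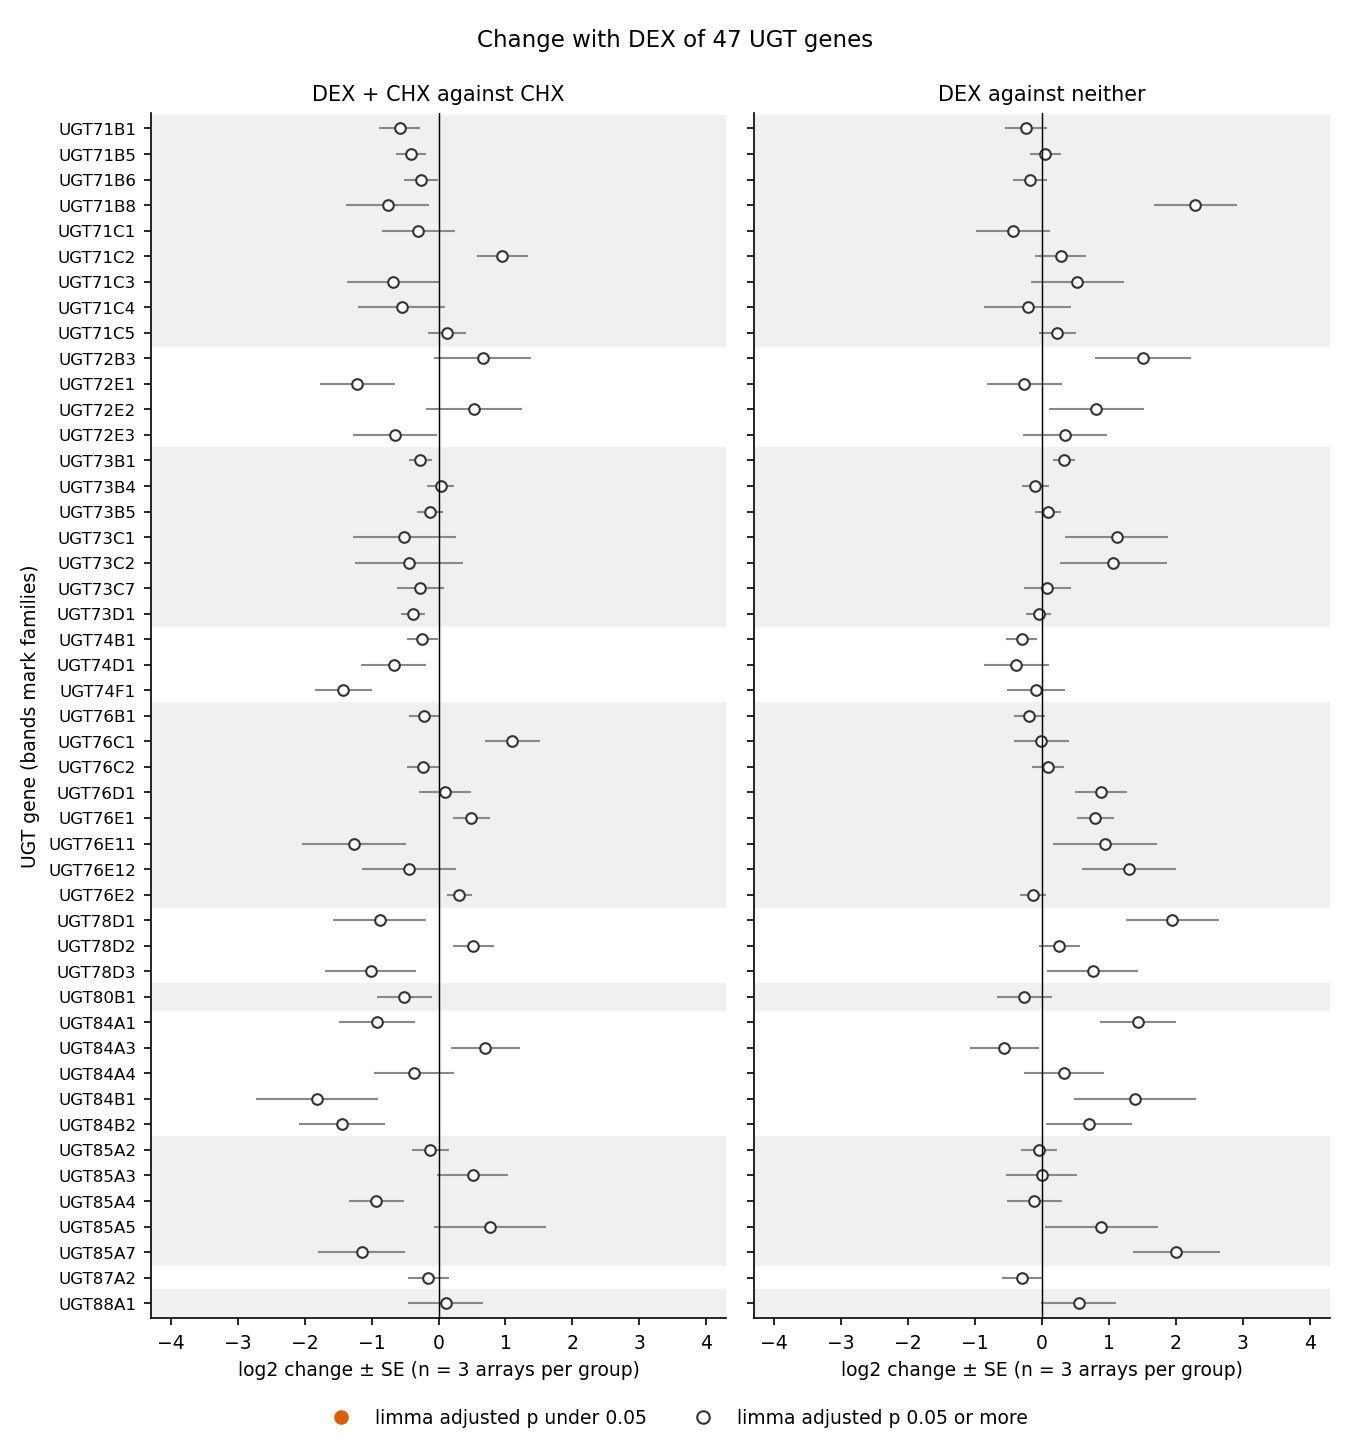
Log2 change with DEX (x axis) of 47 UGT genes (rows, shaded by family), DEX with CHX against CHX on the left and DEX against neither compound on the right, with bars of 1 SE (n = 3 arrays per group). All points are open, none being past the limma threshold, and the widest bars belong to dim genes such as UGT84B1.

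Grouped by their known acceptors, 28 of the 47 members had a listed role, and the counts that follow are over members only. Of these 28, 39.3% were called with CHX without DEX and 35.7% with DEX. Over all probe sets the shares were 26.9% and 31%. The single groups are too small to set against those shares, so their counts are not results about a class of acceptor. Of 3 measured abscisic acid genes, UGT71B6 and UGT71B8 rose and UGT71C5 fell with CHX without DEX, and the call of UGT71B8 ended with a floor of 64. Both measured genes of the redox and foreign compound group, UGT73B4 and UGT73B5, rose in both comparisons. Of 6 phenylpropanoid members, UGT84A3 fell without DEX and UGT84A1 with DEX. A 7th measured gene of that list, GT72B1, carries the name UGT72B1 as a synonym only and rose in both comparisons, by a log2 change of 2.68 without DEX (limma adjusted p = 6.78e-08) and 1.67 with DEX (adjusted p = 3.94e-06). Among the members, the monolignol glucosyltransferase UGT72E2 was the brightest UGT72 probe set. It read 5.05, 8.0 and 8.26 with DEX and CHX, and 6.17, 7.11 and 6.45 with CHX alone. Without CHX it read 8.14, 8.47 and 8.56 with DEX alone, and 6.78, 8.24 and 7.72 with neither compound. UGT72E2 did not pass in any comparison. Its relatives UGT72E1 and UGT72E3 had changes with CHX of 0.04 and 0.81 without DEX.

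Of 4 flavonoid members, UGT73B1 rose in both CHX comparisons and UGT78D1 fell with DEX, and 2 further listed genes with UGT synonyms, UF3GT and AT5G54010, did not pass. The flavonol 3-O-glucosyltransferase UGT78D2 read 8.40, 7.89 and 8.11 with DEX and CHX, 7.10, 7.89 and 7.86 with CHX alone, 8.09, 8.31 and 8.14 with DEX alone, and 7.62, 8.35 and 7.80 with neither compound. Its groups overlapped, with changes with CHX of -0.30 without DEX (SE 0.31, limma adjusted p = 0.572) and -0.05 with DEX (adjusted p = 0.929). The arabinosyltransferase UGT78D3 had a change of -1.73 with DEX (adjusted p = 0.0704).

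Of 3 measured cytokinin genes UGT76C2 alone passed, without DEX; its neighbour UGT76C1, also a cytokinin N-glucosyltransferase, had changes of -0.36 without DEX and 0.75 with DEX. Of 4 measured salicylate genes, UGT76B1 fell in both comparisons and UGT74F1 with DEX, where its call ended with a floor of 64. Neither of 2 measured auxin genes passed, with changes without DEX of 1.21 for UGT84B1 (SE 0.91) and 0.18 for UGT74D1 (SE 0.49). UGT74B1, which acts in glucosinolate synthesis, read 8.85, 8.72 and 9.09 with DEX and CHX, 9.36, 9.06 and 8.97 with CHX alone, 8.46, 8.81 and 8.72 with DEX alone, and 9.15, 8.52 and 9.23 with neither compound. It was bright enough for an SE of 0.23, and its change with CHX was 0.16 without DEX (limma adjusted p = 0.701) and 0.23 with DEX (adjusted p = 0.498). The sterol glucosyltransferase UGT80B1 had changes with CHX of -0.53 without DEX (adjusted p = 0.429) and -0.79 with DEX (adjusted p = 0.173).

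Listed companion genes count as measured where the annotation names them on a probe set of 1 gene. The rest may be on the array without a name. Glutathione S-transferases, which conjugate foreign compounds in the same detoxification route, were measured for 12 of 51 listed detoxification genes. Without DEX 2 rose and 2 fell with CHX, and with DEX 2 rose and 4 fell, beside the 26.9% and 31% of all probe sets called, without and with DEX. GSTU22 averaged 13.28 ± 0.11 with CHX alone and 10.86 ± 0.17 with neither compound (log2, SD, n = 3 each; limma adjusted p = 1.84e-06), and GSTU27 averaged 9.59 ± 0.26 with CHX alone and 11.51 ± 0.16 with neither (limma adjusted p = 3.8e-05). GSTU25 rose 2.74-fold and GSTU16 fell 6.09-fold. Of 18 listed phenylpropanoid pathway genes 2 were measured: HCT, a hydroxycinnamoyltransferase, fell 34.0-fold (limma adjusted p = 3.68e-06) and CCR2, a cinnamoyl-CoA reductase, rose 4.01-fold (adjusted p = 3.95e-06), both without DEX. Of 27 genes that make UDP-sugars, 1 was measured, USP, which makes UDP-sugars from sugar phosphates and fell 2.02-fold without DEX. The listed flavonoid, abscisic acid and salicylate pathway genes had 1 measured gene each, and none passed.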

How the data were processed

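Per the labels, biotin-labelled total RNA was measured on Affymetrix arrays. The authors deposited 1 linear intensity value for each probe set on each array. With 2% trimmed at either end, every array had a mean of 500. No source used here names the software. From the deposited intensity values, log2 was taken here after a floor of 16. The 64 control probe sets were left out. Of 22746 probe sets, 13513 name 1 gene, 503 several and 8730 none; 3 that name several genes with UGT symbols, and 4 genes with a UGT name as a synonym only, are not members. Symbols were updated by Entrez ID against the RefSeq table (TAIR10.1), where all 47 members matched.

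limma 3.58.1 (R 4.3.3) fitted group means over all 12 arrays, with eBayes and a variance trend, Benjamini-Hochberg adjustment over all probe sets and a threshold of 0.05. A fit blocked on replicate number, other scalings, floors, filters and weights, and leaving out each array were alternatives. Same-numbered arrays did not deviate together (4 of 18 pairs with r over 0.1), so the numbers were not used as pairs. Named genes are, per CHX comparison, up to 10 called rises and 10 falls of largest change whose arrays do not overlap; per DEX comparison and for the interaction, the 5 largest changes where none was called; the brightest gene of each family of at least 3; listed members by substrate; and up to 4 called genes of each companion list. UGT71B5, UGT73C7, UGT71C1, UGT71C3 and the neighbour pairs were named beside these after their values were seen. The members and lists were chosen with earlier results of these data known. On data simulated for CHX without DEX over 22746 probe sets, the fit called 14 of 100 2-fold changes, 53 of 100 4-fold changes and 4 of 22546 unchanged probe sets. Only these few probe sets were changed, all upward, and each had a mean more than 2 log2 units above the floor. Dimmer probe sets are not covered by these rates. In the real comparison 26.9% of all probe sets were called. The adjusted p depends on the share that changes, so the simulated rates do not give the share of changes missed here. The number of arrays limits the precision.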

Additional observations from a re-analysis of the deposited data

How the results depend on the processing

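The counts of members called with CHX, in either comparison, stayed within 1.5 times of those reported in all 22 alternatives tried. Both DEX comparisons called 0 members in each of the 22, and the interaction 0 in each of its 21. With the replicate block the counts were 15 without DEX and 19 with DEX, and UGT88A1 without DEX (adjusted p = 0.0573) and UGT84A1 and UGT78D1 with DEX (0.0571 and 0.0606) did not pass. Centring on medians gave 12 (7 higher, 5 lower) and 15 (8 higher, 7 lower), so the falls in both comparisons dropped by over 1.5 times; without DEX it ended the calls of UGT76B1, UGT76C2, UGT76E2 and UGT85A2. Quantile normalization ended those of UGT76E2 without DEX and of UGT71B1, UGT73C7, UGT74F1 and UGT84A1 with DEX. A floor of 64 ended those of UGT71B8 without DEX and of UGT74F1 and UGT84B2 with DEX. Leaving out each array in turn gave 13 to 16 without DEX and 16 to 24 with DEX, where the members that fell were 9 to 16, the lowest without DEX replicate 2. Leaving out both arrays of lowest weight, chosen after seeing the data, gave 14 and 27. All 7 risers with DEX, 6 of 8 risers without DEX, 4 of 8 falls without DEX and 4 of 14 falls with DEX kept their call under every alternative run for them, and no called member changed sign. Averaging probe sets per gene was not run, since each member has 1. Dim probe sets limit the results: the SE of the 32 dimmer members had a median of 0.58, and values at the floor of 16 have no order.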

Other observations

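The 4 genes that carry a UGT name only as a synonym are no members, and their values are given here. GT72B1 (UGT72B1), which conjugates foreign chlorinated compounds and monolignols, read 12.05, 11.96 and 12.02 (log2 intensity) with DEX and CHX, 12.27, 12.30 and 12.12 with CHX alone, 10.37, 10.09 and 10.57 with DEX alone, and 9.30, 9.70 and 9.67 with neither compound. It rose with CHX by 2.68 without DEX (limma adjusted p = 6.78e-08) and by 1.67 with DEX (adjusted p = 3.94e-06). Its change with DEX without CHX was 0.79 (95% interval 0.44 to 1.13), with no overlap between the groups, and it did not pass (adjusted p = 0.406). The sterol glucosyltransferase gene SGT (UGT80A2) averaged 7.31 ± 0.70 with DEX and CHX, 7.55 ± 0.08 with CHX alone, 8.32 ± 0.03 with DEX alone and 8.59 ± 0.16 with neither (SD, n = 3 each). It fell with CHX 2.06-fold without DEX (limma adjusted p = 0.028) and 2.01-fold with DEX (adjusted p = 0.0302). UF3GT (UGT79B1) and the gene AT5G54010 (UGT79B6), both flavonoid glycosyltransferases, passed in no comparison.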
